A study of Mus musculus with 6 samples.

Results

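The AMPA and kainate receptor subunits are the 9 genes Gria1 to Gria4 and Grik1 to Grik5, chosen by name from the 43346 genes of the count table. All 9 were found in the table, and all 9 reached 10 CPM (the usual depth-scaled count) in at least 3 libraries, as did 10520 genes in all. This filter used the library totals alone, whereas the CPM levels of genes given below also carry TMM correction of those totals. The RNA came from primary cortical cell cultures of mouse embryos at gestational day 15.5. Cultures 1, 3 and 4 each gave 1 library treated with vehicle (DMSO) and 1 exposed to 10HDA at 1 mM. 10HDA (trans-10-hydroxy-2-decenoic acid) is a lipid that honeybees secrete into royal jelly. The comparison asks how 10HDA alters RNA levels in fetal cortical cells. All 6 libraries carry the strain label Cyp19-EGFP, a reporter for the aromatase gene, and the genotype label SRY+, whereas the methods for this RNA sequencing name C57BL/6 embryos. Aromatase was not deleted in either group, and how many embryos made up a culture is not given in the sources used here.

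AMPA and kainate receptors are glutamate-gated ion channels, each built of 4 subunits. AMPA receptors carry most fast excitatory transmission in the cortex, and the Gria2 subunit, when its RNA has been edited, keeps calcium from passing the pore. Kainate receptors adjust transmitter release and excitability. Grik1, Grik2 and Grik3 can form channels by themselves, whereas Grik4 and Grik5 bind glutamate with high affinity and need a partner from the former group.

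The sequences below show a stretch that lines the pore and holds a codon that is edited in the RNA of some subunits. Each is 27 bases of coding sequence (GRCm38, GENCODE M21 annotation), read 5′ to 3′ on the strand of the gene, with the codon of the Q/R site in capitals. Adenosine editing of this codon changes glutamine to arginine in the RNA of Gria2, Grik1 and Grik2.
Gria1: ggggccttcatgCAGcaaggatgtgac
Gria2: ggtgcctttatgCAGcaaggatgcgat
Gria3: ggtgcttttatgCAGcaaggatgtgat
Gria4: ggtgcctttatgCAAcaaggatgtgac
Grik1: ggagctctcatgCAGcaaggatcggag
Grik2: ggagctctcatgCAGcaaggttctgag
Grik3: ggctccctgatgCAGcaaggatctgaa
Grik4: ggaggcttcatgCAGcaaggctccact
Grik5: ggtggcttcatgCAGcagggctcggag

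The genome codes for glutamine at this site in all 9 genes. The other AMPA subunits differed from Gria2 at 2 to 4 of the 27 bases, and the kainate subunits at 7 to 8. The Gria2 codon lies at chr3:80706911-80706913 on the minus strand, in exon 11 of 16, and the Grik2 codon at chr10:49244329-49244331 on the minus strand, in exon 12 of 16. Counts per gene do not resolve edited from unedited RNA, nor splice forms. The genes can be told apart at the length of these reads: the share of 50-base words of exon sequence that also occur in another gene ran from 0% for Gria1 to 0.733% for Gria2. Small annotated genes overlap an exon on the same strand in Gria2 (Gm25749), Gria3 (Gm22413), Gria4 (Gm23811) and Grik4 (Gm24420), so a few reads there cannot be assigned.

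The libraries held 9144736 to 13367194 counts, so that 3 counts correspond to 0.224 to 0.328 CPM without TMM correction, a limit that covers counting error only. The Y-linked genes summed to 8.88 and 9.09 CPM in the libraries of culture 1, against 95.8 to 133 CPM in the other 4, although every library is labelled SRY+. The libraries of cultures 3 and 4 also held Xist RNA (394 to 826 CPM), as did those of culture 1 (1010.4 and 1411 CPM). Gria3 is on the X chromosome, and its values are given by culture below. Neuronal markers were abundant, at 7451 to 8022 CPM in sum over 10 genes with vehicle, as the label of the cultures calls for. The microglial list summed to 0.915 to 1.08 CPM, with Tmem119 at 0 in all 6 libraries.

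With vehicle, the subunits were ranked by CPM per kilobase of annotated exon, which adjusts for gene length. The transcripts in use in these cells are not known, and the order depends on the lengths. By mean CPM alone, Gria2 (551) stood above Gria1 (315). Grik5 stood highest with 64.6 ± 2.88 CPM per kilobase (SD, n = 3 here and below), followed by Gria1 with 52.2 ± 3.56, Gria2 with 35.4 ± 7.34 and Grik3 with 22.7 ± 3.02. Gria4 (15.002 ± 1.81) and Grik2 (13.5 ± 1.26) overlapped between libraries and were not separable, and the same held for Gria3 (5.75 ± 0.599) and Grik1 (5.03 ± 0.402). Grik4 was lowest, with 2.43 ± 0.210 CPM per kilobase. The order was the same with 10HDA, where Gria3 and Grik1 again overlapped.

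10HDA went with lower RNA of Grik3, Gria3 and Gria1, while Gria2 and Grik5 did not move in a common direction. The outcome of the test depended on how culture was treated. Without regard to culture, 0 of the 9 subunits passed an adjusted p of 0.1 (edgeR, quasi-likelihood F-test, Benjamini-Hochberg over all 10520 genes), against 0.627% of all genes. At an unadjusted p under 0.05, 4 subunits were lower (Gria1, Gria3, Grik1 and Grik3) and 0 higher, where 10.1% of all genes passed in either direction and 5.67% were lower. The tests of DESeq2 and edgeR's likelihood ratio each called 2, Gria1 and Grik3, beside 1.62% and 2.07% of all genes. With culture as a block, which pairs the vehicle and 10HDA library of each culture, 3 subunits fell (Gria1, Gria3 and Grik3) and 0 rose, beside 8.98% of all genes called in either direction and 5.08% called lower. In 5 of the 9 (Gria1, Gria3, Grik1, Grik3 and Grik4) every 10HDA library lay below every vehicle library, a pattern shown by 7.62% of all genes. The level was lower in 3 of 3 cultures for 6 subunits (the same 5 and Grik2), beside 21.4% of all genes. The median log2 fold change of the 9 was -0.28, against -0.0095 over all genes. The subunits were chosen with earlier results of these data known, so contrasts with all genes are not independent of those results. RNA from whole cultures cannot tell fewer cells of a type from less RNA per cell.

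**Figure D1:**
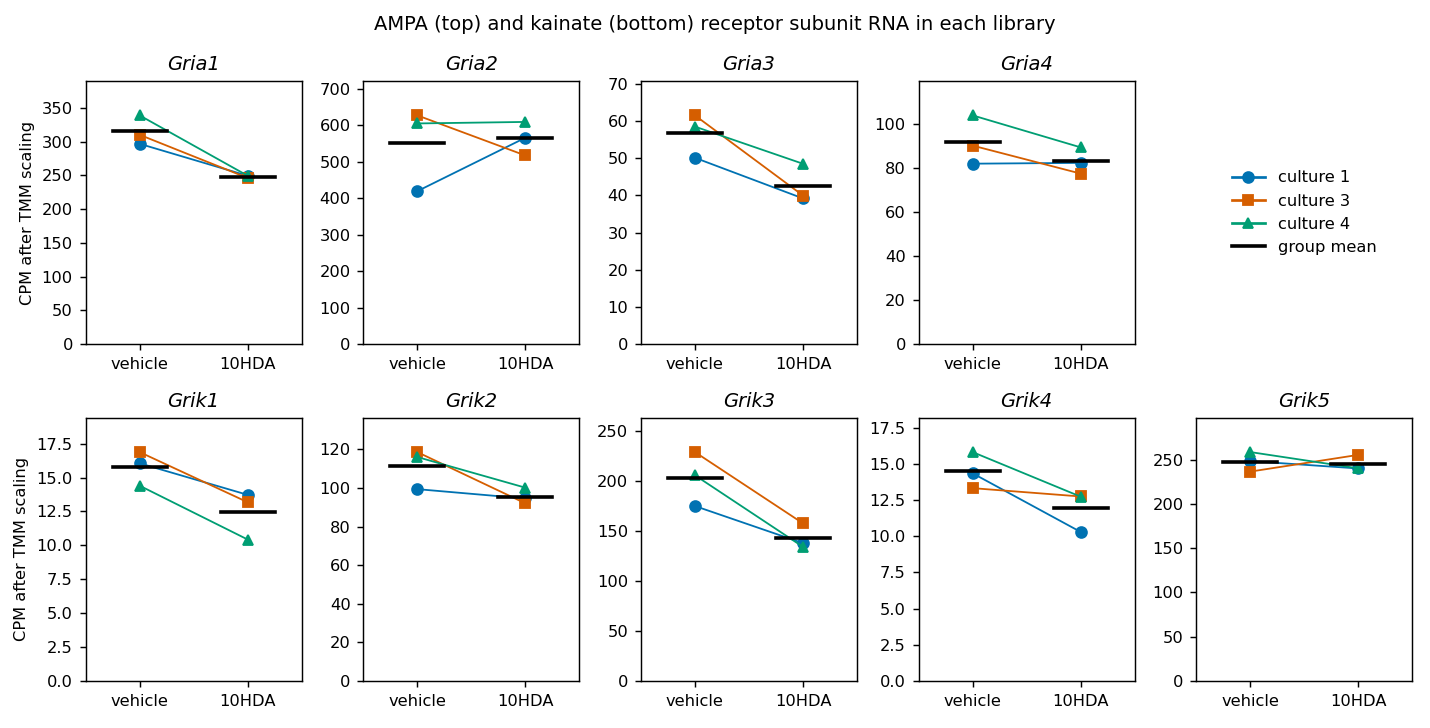
CPM after TMM scaling (vertical axes, from 0, with a scale per gene) of the AMPA subunits (top) and kainate subunits (bottom) in vehicle and 10HDA libraries, with a line joining the libraries of a culture and a bar at the group mean. The Grik3 libraries run from 175 to 229 CPM with vehicle and from 134 to 158 with 10HDA, whereas Gria2 in culture 1 goes from 419 to 566 CPM.

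Among the AMPA subunits, Gria1, a subunit whose insertion accompanies synaptic strengthening, had 297, 310.1 and 339 CPM in vehicle cultures 1, 3 and 4 and 249, 246 and 249 CPM in the 10HDA cultures. All 3 vehicle libraries were above all 3 10HDA libraries, and the 10HDA libraries lay within a few CPM of each other. The log2 fold change was -0.34 ± 0.093 (standard error; adjusted p = 0.24, edgeR), and with culture as a block it was -0.34 ± 0.092 (adjusted p = 0.028). That is a level that fell by 21.0%.

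Gria3, an X-linked AMPA subunit, had 50.1, 61.5 and 58.5 CPM with vehicle and 39.2, 40.0 and 48.5 CPM with 10HDA. The groups did not overlap, and the gap between the lowest vehicle and the highest 10HDA library was small. Within cultures 1, 3 and 4 the log2 difference was -0.35, -0.62 and -0.27, so culture 1 lay between the others. The log2 fold change was -0.42 ± 0.12 (adjusted p = 0.28, edgeR), and -0.42 ± 0.10 with the block (adjusted p = 0.017). Gria3 stayed called in the blocked fit when both libraries of culture 1 were left out.

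Gria2 had the most counts of any subunit, with 419, 627 and 605 CPM with vehicle and 566, 517 and 609 CPM with 10HDA. The vehicle library of culture 1 was the lowest of the 6, and the groups overlapped. Within cultures the log2 difference was 0.43, -0.28 and 0.0099, without a common direction. The log2 fold change was 0.04 (95% interval -0.29 to 0.36; adjusted p = 0.95, edgeR), and it was -0.11 with both libraries of culture 1 left out.

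Gria4, the AMPA subunit prominent in early development and in interneurons, had 82.1, 90.4 and 104 CPM with vehicle and 82.5, 77.6 and 89.5 with 10HDA. The groups overlapped, with culture 1 almost level and the other cultures lower. The log2 fold change was -0.15 (95% interval -0.39 to 0.10; adjusted p = 0.67, edgeR).

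Of the kainate subunits, Grik3, which forms channels of low glutamate affinity, had 175, 229 and 206 CPM with vehicle and 138, 158 and 134 CPM with 10HDA. It was lower with 10HDA in 3 of 3 cultures and its groups did not overlap. Its log2 fold change was -0.50 ± 0.12 (adjusted p = 0.15, edgeR), and with culture as a block -0.50 ± 0.094 (adjusted p = 0.0014). The level fell by 29.2%.

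Grik1, found mainly in interneurons of the cortex, had 16.05, 16.9 and 14.4 CPM with vehicle and 13.7, 13.2 and 10.4 with 10HDA. The groups did not overlap, though only 95 to 223 counts per library lay behind these values. The log2 fold change was -0.33 ± 0.15 and did not pass the test (adjusted p = 0.49, edgeR, and 0.15 with the block).

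Grik2, a widespread channel-forming subunit, had 99.4, 119 and 116 CPM with vehicle and 94.6, 92.1 and 100.2 with 10HDA. The libraries of culture 1 were close, and the groups overlapped narrowly. The log2 fold change was -0.22 ± 0.10 (adjusted p = 0.50, edgeR, and 0.20 with the block).

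The high-affinity subunits differed from each other in level rather than in a tested change. Grik4 had 14.3, 13.3 and 15.8 CPM with vehicle and 10.3, 12.7 and 12.7 with 10HDA. Its groups did not overlap, though only 116 to 190 counts per library lay behind these values. Culture 3 was almost level, with a log2 difference of -0.063. The Grik4 log2 fold change of -0.28 ± 0.15 did not pass the test (adjusted p = 0.53, edgeR, and 0.28 with the block). Grik5 had 249, 237 and 259 CPM with vehicle and 240.2, 256 and 240.3 with 10HDA. The Grik5 groups overlapped, with a log2 fold change of -0.013 (95% interval -0.21 to 0.19; adjusted p = 0.97, edgeR), whose sign turned with other scalings (0.065 with library size alone).

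**Figure D2:**
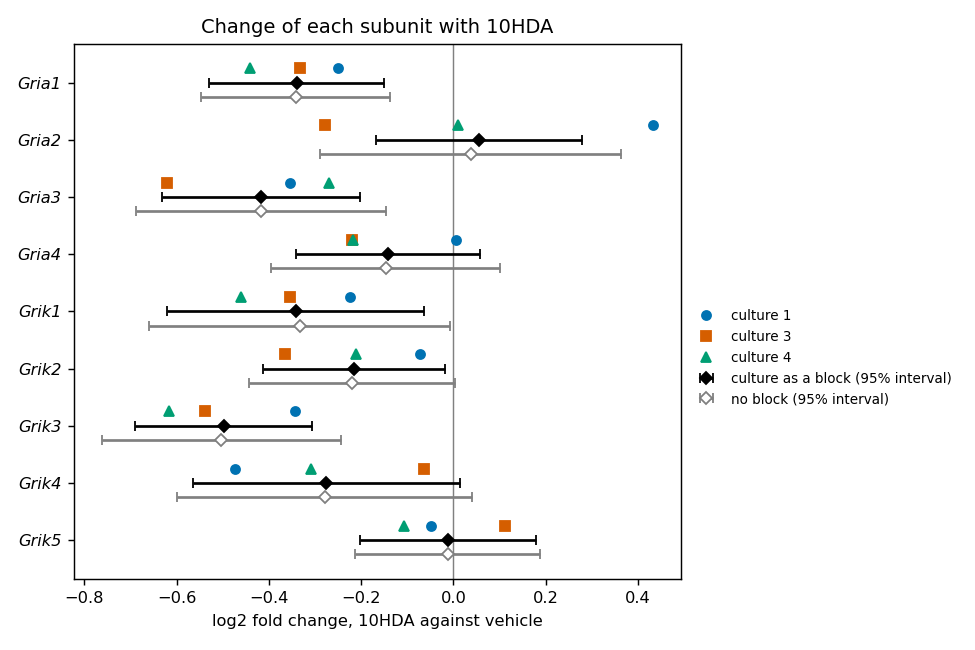
Log2 fold change of each subunit, 10HDA against vehicle (horizontal axis), with culture as a block (black diamonds), without it (open diamonds), both with 95% intervals, and within each culture (coloured symbols). The blocked intervals of Gria1, Gria3 and Grik3 lie furthest below 0, and the cultures of Gria2 lie on both sides of 0.

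The mix of subunits was compared as the share of counts per kilobase within each family, which does not depend on library scaling. It does depend on the annotated exon lengths. Shares in a family have a fixed sum, so a share can rise while the RNA of that subunit does not. The log2 fold changes of Gria2 and Grik5 RNA were 0.04 and -0.013. With 3 libraries against 3, the exact permutation test (two-sided) cannot give a p below 0.1, and 9 shares were compared. Gria2 took 28.5%, 35.8% and 33.0% of AMPA subunit RNA in vehicle cultures 1, 3 and 4 and 38.3%, 36.7% and 39.2% with 10HDA. All 3 10HDA libraries were above all vehicle libraries, though culture 3 differed by 0.860 percentage points against 9.76 in culture 1. The mean share was 32.5% ± 3.68 with vehicle and 38.1% ± 1.27 with 10HDA (SD, n = 3; exact p = 0.1, 0.18 after adjustment over the 9 shares). Gria1 went the other way, from 48.4% ± 3.26 to 43.2% ± 1.82 (exact p = 0.1). Its ratio to Gria2 was 1.51 ± 0.281 with vehicle and 1.14 ± 0.0855 with 10HDA. The share of Gria3 was 5.32% ± 0.259 with vehicle and 4.52% ± 0.373 with 10HDA, without overlap (exact p = 0.1). The share of Gria4 was 13.9% ± 0.701 and 14.2% ± 0.334 (exact p = 0.7).

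Among kainate subunits Grik5 took 62.4%, 56.5% and 60.4% with vehicle and 65.5%, 65.5% and 65.8% with 10HDA. The 10HDA libraries were all higher and nearly equal to each other. The mean shares were 59.7% ± 2.997 and 65.6% ± 0.165 (SD, n = 3; exact p = 0.1). Grik3 took 20.9% ± 2.32 with vehicle and 16.4% ± 0.823 with 10HDA, again without overlap (exact p = 0.1). Its ratio to Grik5 was 0.352 ± 0.0573 and 0.250 ± 0.0130, and its ratio to Grik2 was 1.68 ± 0.0874 and 1.39 ± 0.176. The share of Grik2 was 12.4% ± 0.791 and 11.9% ± 0.892 and overlapped (exact p = 0.5).

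**Figure D3:**
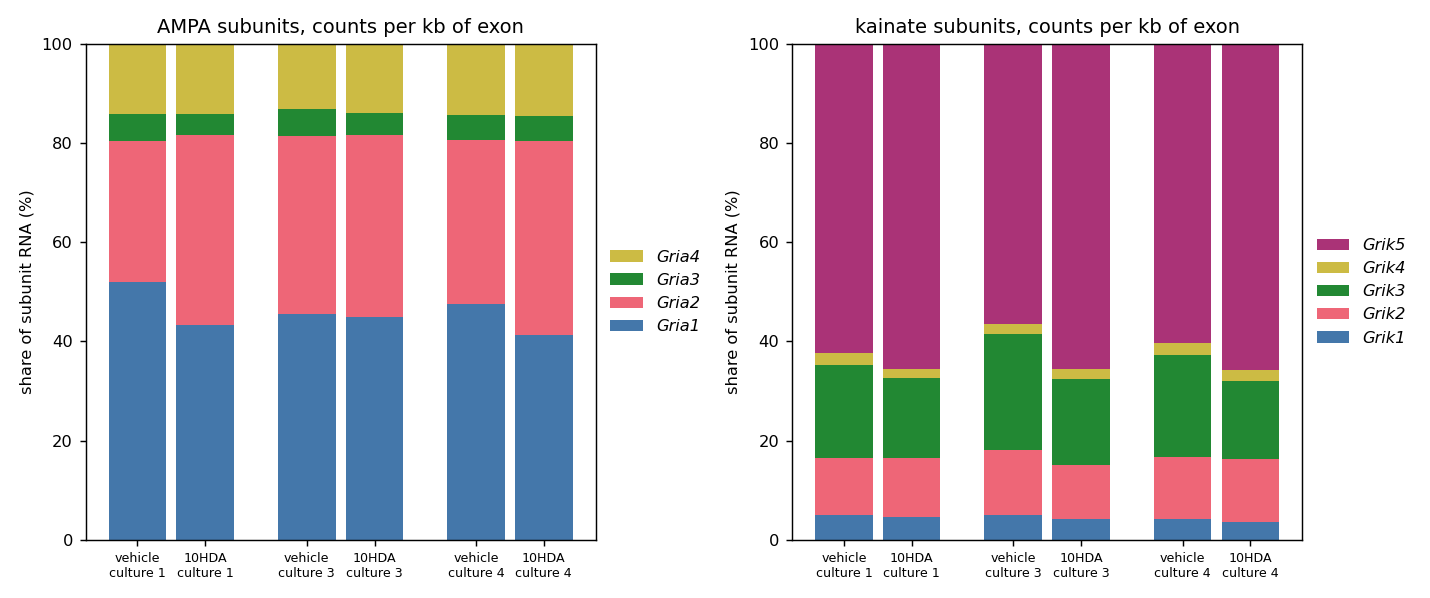
Share of each subunit (vertical axis, percent) in the summed counts per kilobase of AMPA subunits (left) and kainate subunits (right), 1 bar per library, paired by culture. Gria2 takes 28.5% to 35.8% of the left bars with vehicle and 36.7% to 39.2% with 10HDA, and Grik5 takes 56.5% to 62.4% and 65.5% to 65.8% of the right bars.

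Genes whose proteins assemble, escort or anchor these receptors were followed as a list of 40, of which 35 passed the filter (Cacng5, Nptx2, Olfm3, C1ql2 and C1ql3 did not). Their log2 fold change was below 0 in 28 and above 0 in 7, with a median of -0.18, and 52.1% of all genes were below 0. The list was chosen with earlier results of these data known, so contrasts with all genes are not independent of those results. In edgeR's quasi-likelihood test 0 of the 35 passed, beside 0.627% of all genes. At an unadjusted p under 0.05, 10 were lower and 0 higher, where 10.1% of all genes passed in either direction and 5.67% were lower. The DESeq2 and likelihood ratio tests each called 2, Neto1 and Nptxr, beside 1.62% and 2.07% of all genes. With culture as a block 8 fell and 0 rose, beside 8.98% of all genes called in either direction and 5.08% called lower.

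The auxiliary subunits of kainate receptors differed from each other. Neto1, which slows kainate receptor gating, averaged 43.4 ± 8.82 CPM in vehicle cultures and 29.0 ± 2.38 CPM in 10HDA cultures (SD, n = 3). Its log2 fold change was -0.58 ± 0.15 (adjusted p = 0.21, edgeR, and 0.0020 with the block). Neto2, its relative, had 198 ± 27.1 and 197 ± 5.80 CPM, a log2 fold change of -0.0071 (adjusted p = 0.99, edgeR), whose sign turned with each other scaling.

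Among the 13 tested AMPA auxiliary genes, 3 fell with the block, beside 8.98% of all genes called in either direction and 5.08% called lower. They were Gsg1l, which restrains AMPA currents (-0.50 ± 0.13, adjusted p = 0.019, edgeR with the block), Shisa9 (-0.33 ± 0.095, adjusted p = 0.042) and Shisa6 (-0.35 ± 0.11, adjusted p = 0.058). Syndig1, a synapse differentiation factor, missed the threshold (-0.37 ± 0.13; adjusted p = 0.11, edgeR with the block). The TARP gene Cacng2 (stargazin), an escort of AMPA receptors to synapses, had a log2 fold change of 0.023. The cornichon genes Cnih2 and Cnih3 had -0.017 and -0.0042. These 3 were named after their values were seen and do not stand for the list. Without the block, 10 of the 13 tested genes were below 0 and 3 above 0, with a median of -0.27, beside 52.1% of all genes below 0.

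Of the genes for assembly and export in the endoplasmic reticulum, Cpt1c had 0.073 and Abhd6, which limits surface AMPA receptors, -0.23. In either edgeR fit 0 of 4 passed, beside 0.627% of all genes without the block and 8.98% with it. Among the extracellular binding proteins Nptxr, the neuronal pentraxin receptor that clusters AMPA receptors, averaged 552 ± 57.4 CPM in vehicle cultures and 420.0 ± 37.2 in 10HDA cultures. Its blocked log2 fold change was -0.39 ± 0.094 (adjusted p = 0.012, edgeR), while Olfm1 had -0.21 ± 0.092 (adjusted p = 0.19). Nsf, the ATPase that binds the Gria2 tail, fell with the block (-0.32 ± 0.091; adjusted p = 0.034, edgeR), as did the scaffold gene Grip1 (-0.29 ± 0.10; adjusted p = 0.094). Grip1 was not called when the block was combined with another scaling, the lower filter or a culture left out (adjusted p = 0.11 to 0.51, edgeR).

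Adarb1, which edits the Q/R codon shown above, averaged 101 ± 12.4 CPM in vehicle cultures and 95.1 ± 0.422 in 10HDA cultures, a log2 fold change of -0.089 (adjusted p = 0.79, edgeR). Adarb2, a relative without known editing activity, fell with the block (-0.36 ± 0.12; adjusted p = 0.069, edgeR). Grid1, a delta receptor gene, had a log2 fold change of -0.19 and did not pass the test (adjusted p = 0.56, edgeR, and 0.29 with the block).

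**Figure D4:**
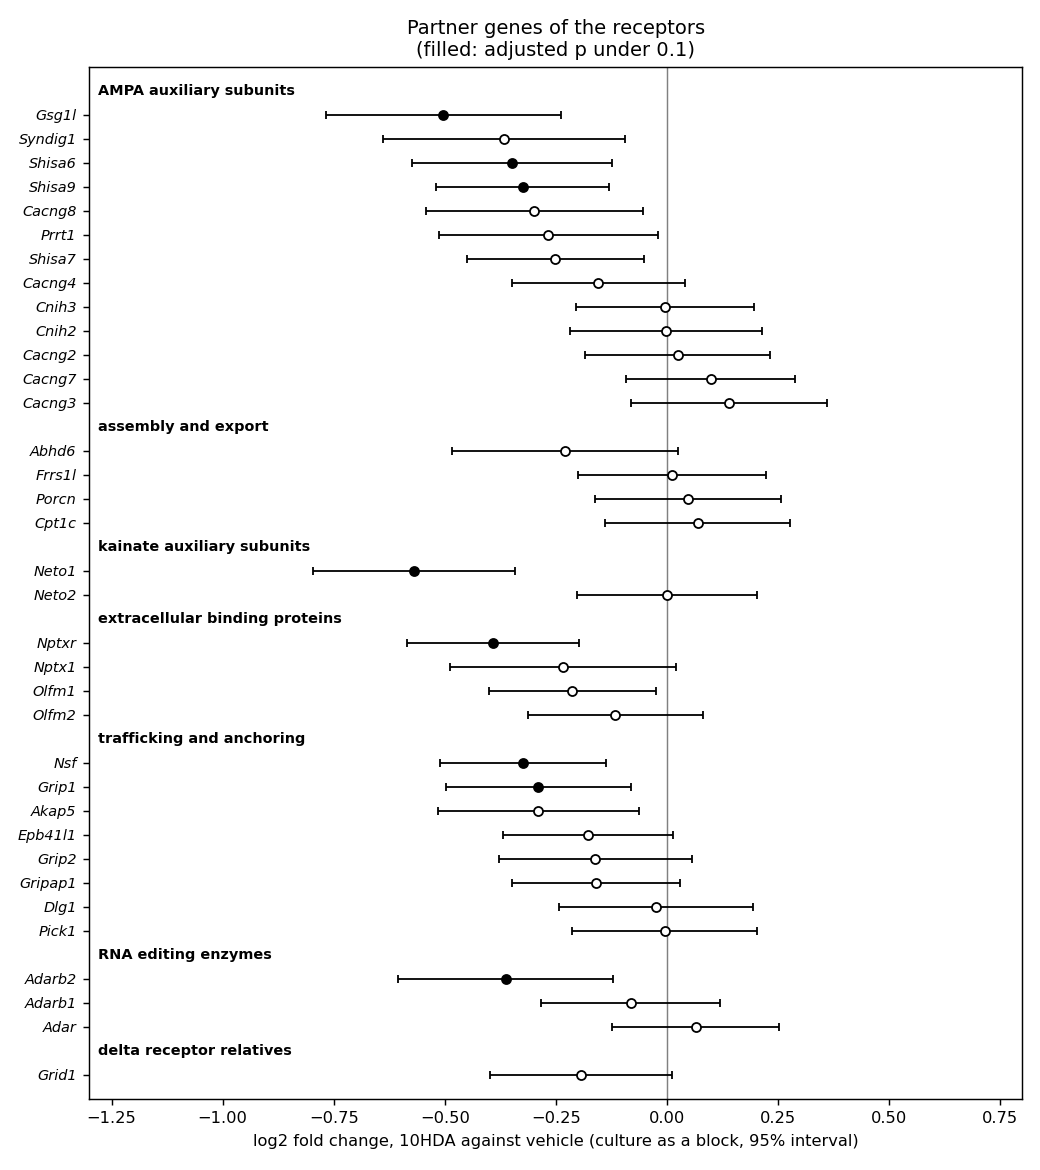
Log2 fold change of the 35 tested partner genes, 10HDA against vehicle, from the fit with culture as a block (horizontal axis, points with 95% intervals), grouped by role. The 8 filled points, all below 0, have an adjusted p under 0.1, with Neto1 the lowest at -0.57.

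Cell type markers also differed between the groups, not all in the same direction, and their part in the results was not tested. The neuronal list summed to 7451 to 8022 CPM with vehicle and 6233 to 7185 with 10HDA, with 9 of 10 genes lower. With the block, 4 of these 10 were called, all lower. Of all genes, 52.1% were below 0. With the block 8.98% of all genes were called in either direction and 5.08% called lower, and without it 0.627% and 0.428%. These shares are the background for each marker list here, and the lists were chosen with earlier results of these data known. The excitatory list summed to 1166 to 1428 and 1093 to 1290 CPM with 6 of 8 lower and 1 called lower with the block, and the interneuron list to 532 to 682 and 445 to 598 CPM with 9 of 10 lower and 5 called lower with the block. The astrocyte list summed to 1166 to 1438 and 898 to 1112 CPM, with 7 of 8 tested genes lower and 4 called lower with the block (3 without it). Of the oligodendrocyte lineage 4 of 7 tested genes were lower and 3 called lower with the block, and the list summed to 336 to 421 and 257 to 364 CPM. The vessel list summed to 16.9 to 18.7 and 7.63 to 10.6 CPM, with Pdgfrb, its only tested gene, called lower in both fits. Pdgfrb alone made up most of these sums, with 14.9 to 15.8 CPM with vehicle and 6.04 to 9.43 with 10HDA. The other genes of the vessel list were under the filter. Radial glial markers summed to 771 to 936 and 710.1 to 791 CPM, with Fabp7 called lower and Vim called higher with the block. Intermediate progenitor markers went the other way, summing to 43.2 to 59.9 CPM with vehicle and 66.9 to 97.8 with 10HDA, and both tested genes, Btg2 (0.66) and Insm1 (0.74 on the log2 scale), were called higher with the block. The AMPA subunits summed to 848 to 1107 CPM with vehicle and 881 to 997 with 10HDA, and the kainate subunits to 554 to 615 and 497 to 531.

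**Figure D5:**
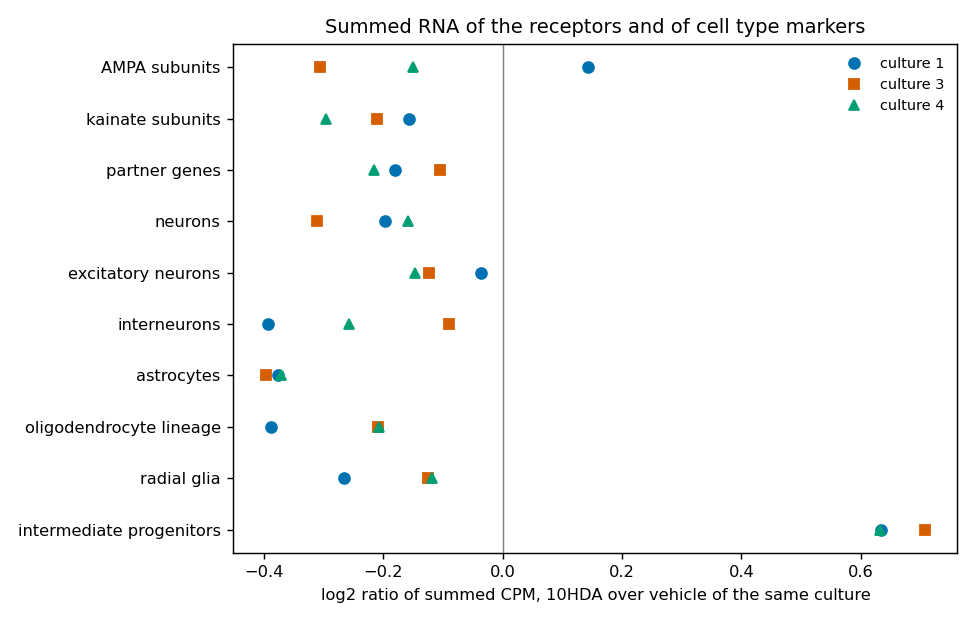
Log2 ratio of summed CPM, 10HDA over the vehicle library of the same culture (horizontal axis), for the receptor subunits, their partner genes and lists of cell type markers, 1 symbol per culture. Kainate subunits run from -0.30 to -0.16, neuronal markers from -0.31 to -0.16 and astrocyte markers from -0.40 to -0.37, while AMPA subunits run from -0.31 to 0.14 and intermediate progenitor markers from 0.63 to 0.71.

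The genes whose log2 CPM followed each subunit most closely over the 6 libraries are given as a description. They were Amph and Col23a1 for Gria1 (Pearson's r 0.996 and 0.992), Pura and Frrs1l for Gria2 (0.992 and 0.992), Efr3b and Grm7 for Gria3 (0.988 and 0.986) and Ccdc39 and Sik1 for Gria4 (0.994 and 0.993). For the kainate subunits they were Cntnap4 and Glra2 for Grik1 (0.982 and 0.968), Dnajc6 and Bcl11b for Grik2 (0.9997 and 0.996), Tbc1d16 and Tmem229b for Grik3 (0.990 and 0.988), Kcnip3 and Zswim4 for Grik4 (0.992 and 0.987) and Tent4a and Med25 for Grik5 (0.977 and 0.9753). The libraries share treatment, culture and depth, and the highest correlations among all tested genes over 6 points are high by selection.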

How the data were processed

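The authors aligned untrimmed 50 bp single-end reads to mm10 with Subjunc (Subread 1.4.4) and used featureCounts with Gencode models to assign reads to genes. The deposited values are raw counts per gene, without normalization, beside a gene length, and the strand setting of the counting is not given in the sources used here. Columns were matched to samples by the library number in their names. Symbols and positions came from GENCODE M21 (GRCm38), which matched 98.0% of identifiers.

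A gene was tested if 3 or more libraries reached 10 CPM. After TMM scaling, glmQLFit and glmQLFTest of edgeR 4.0.16 (R 4.3.3) compared the treatments, with Benjamini-Hochberg adjustment at 0.1 and no culture term, as the methods state none. The labels place 1 library of each treatment in each culture, which pairs them. Deviations from group means correlated at 0.37, 0.24 and 0.62 within cultures 1, 3 and 4 and at -0.45 to 0.18 between cultures. The deviations of a group sum to 0 for each gene, so this contrast is partly built in. Culture 3 stood little above the highest value between cultures. Fits with culture as a block are given too. Within-culture differences used log2 CPM with a prior count of 2. Shares were compared by exact permutation tests (scipy 1.17.1). Alternatives were other scalings, filters, thresholds and tests (DESeq2 1.42.0, likelihood ratio), and libraries or cultures left out. The subunits and gene lists were chosen with earlier results of these data known. Named genes were all subunits, partner genes past 0.1 in either fit and the 2 with the smallest p per role, and the 2 most correlated genes per subunit. An item of the partner list is not reported here. Cacng2, Cnih2 and Cnih3 were named after their values were seen. In simulated counts for 10HDA against vehicle (10520 genes), a log2 change of 0.5 was set in 200 genes. Without the block 0 were recovered, with 0 false calls, and with it 162, with 18 false calls. At a log2 change of 1, 194 were recovered without the block and 196 with it, with 0 and 25 false calls. The counts were drawn with culture differences and the spread of the blocked fit, so a gain from the block was built in.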

Additional observations from a re-analysis of the deposited data

How the results depend on the processing

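The number of subunits and partner genes called depended on the pairing of libraries by culture, the test and the filter. Without the block, 66 genes, 0 subunits and 0 partner genes were called, and with the replicate block 945, 3 and 8. Without the block the counts were 636, 2 and 3 with no filter (Gria3, Grik3, Gsg1l, Neto1 and Nptxr), and 170, 2 and 2 with DESeq2's test and 218, 2 and 2 with the likelihood ratio test (Gria1, Grik3, Neto1 and Nptxr in both). At a threshold of 0.05, 43 genes were called, and with culture 1, 3 or 4 left out 2, 0 and 35. Leaving out single libraries gave 0 to 355 genes, 0 to 1 subunits and 0 to 1 partner genes: the subunit was Grik3 without the vehicle library of culture 1 and Gria3 without the 10HDA library of culture 4. Alternatives added after seeing the data combined the block with another choice. They called 1265 genes, 3 subunits and 4 partner genes with library size alone, 943, 3 and 7 with DESeq2 size factors, 944, 3 and 6 with upper quartile scaling, and 1148, 3 and 7 with a filter of 1 CPM. Without culture 1, 3 or 4 they called 869, 3 and 9, then 1089, 3 and 8, then 358, 2 and 1, Gria1 being the subunit lost without culture 4. Grip1 was lost in all 7 of these combinations. The share of higher genes among blocked calls was 43.5%, and 75.0% with library size alone and 56.4% with upper quartile scaling. Without the block it was 31.8%, and 46.7% with library size alone. The median log2 fold change of the subunits was -0.28, -0.20 with library size alone with or without the block, and -0.33 to -0.19 with single libraries left out.

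Gria1, Gria3, Grik1, Grik2, Grik3, Grik4 and Gria4 stayed lower in all 25 alternatives. The sign turned for 3 genes that no alternative called, and the cause was not tested. Gria2 went to -0.11 without culture 1, with or without the block, and ran from -0.10 to 0.16 with single libraries left out. Grik5 went to 0.065 with library size alone, 0.017 with upper quartile scaling, 5.2e-05 with DESeq2's test, and 0.024 and 0.040 without culture 1 or 4. With the block it was 0.064, 1.6e-05, 0.017 and 0.00042 with library size, DESeq2 size factors, upper quartile and the 1 CPM filter, and 0.025 and 0.040 without culture 1 or 4. Neto2 went to 0.0046, 0.067 and 0.021 with the 3 scalings (DESeq2, library size, upper quartile), 0.0057 and 0.0015 with the 1 CPM filter and no filter, 0.0046 with DESeq2's test, 0.00020 with the block and 0.14 without culture 3. With the block and those choices it was 0.012, 0.076, 0.029, 0.013 and 0.14. With single libraries left out, Grik5 ran from -0.043 to 0.037 and Neto2 from -0.043 to 0.13. The Grik2 share difference of -0.544 points went to 0.0763 without length and 0.278 without culture 3. The Gria2 share difference stayed positive. Pairing by culture leaves a mean share difference as it is, 5.602 points, by construction.

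In the simulated counts a log2 change of 0.5 was recovered in 0 of 200 genes without the block and in 162 with it. A change of 1 was recovered in 194 and 196. These counts were drawn from a fit with culture in it, so they cannot show which fit is to be preferred. Smaller changes were not simulated, and the 6 subunits not called with the block had fitted changes of -0.34 to 0.056.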
